A study of Mus musculus with 18 samples.

Results

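The V segments of the T cell receptor alpha chain are the gene pieces named Trav. All rows of the gene table whose Ensembl identifier carries a mouse symbol beginning with Trav were taken, which gave 128 segments of 34162 genes. They form 23 families, a family being all segments that share the number after Trav. Each library was made from the messenger RNA of some 500 CD4+ effector T cells, sorted 3 weeks after T cells had been put into Rag-deficient hosts. Such hosts cannot assemble receptor genes and so lack lymphocytes of the T and B lineages. The donor cells were C57BL/6 Nr1i3-/-, which lack the xenobiotic-sensing nuclear receptor CAR, or C57BL/6 CD45.1+, which are wild type for CAR and carry a congenic form of the surface protein CD45. All hosts were Rag-deficient, and both genotypes were recovered from small intestinal lamina propria (siLP), colonic lamina propria (cLP) and spleen. The 6 groups hold 3 libraries each, 18 in all, and an effect of genotype cannot be told apart from one of the congenic marker. The columns carry no replicate number, so the 3 libraries of a group are called a, b and c by the ending of their column names. The libraries of the 3 organs with 1 genotype and 1 ending are called a trio here. The labels do not say that a trio shares hosts or that libraries come from separate animals, so each p-value reflects no more than how these 18 libraries vary.

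Each developing alpha beta T cell joins a Trav segment to a Traj segment, and the joined exon is spliced to the constant gene Trac. The join is kept by all descendants of the cell, so the Trav messages of a sample reflect the clones in it. The V exon encodes the first and second antigen-contacting loops, and its last codons begin the third loop, CDR3, which continues into the Traj segment. Mouse Trav segments lie in repeated blocks, in which a segment can have a d copy (Trav7d-2) and an n copy (Trav7n-5) beside the core one. Segments with dv in their name can also join the delta chain of gamma delta T cells. Trav11 is the family of the invariant NKT cell receptor and Trav1 that of the MAIT cell receptor.

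The 128 segments comprise 55 core, 39 d and 34 n copies, and 20 of them are annotated as pseudogenes. All lie on the plus strand at chr14:52427928-53977678 (GRCm38). A library held 8405 to 22549 Trav counts, which is 0.0426% to 0.0913% of its 19605316 to 25436582 counts. In 7 segments no library had a count, 115 reached 3 counts in at least 1 library, and 21 did so in all 18. By family, 22 of 23 reached 3 counts somewhere and 12 in every library. A floor of 3 counts is 0.0133% to 0.0357% of a library's Trav counts, and the 95% Clopper-Pearson intervals of the family percents reach at most 0.979 points to either side, for counting error only.

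In every group library a stood apart. The 6 libraries a had 15592 to 16241 genes detected and 3.70% to 3.98% mitochondrial counts, and results that rest on them are also given without them. The library labelled siLP CAR-deficient a held 196 counts of Nr1i3, against at most 36.1 in the other 17 libraries, so the deleted gene goes against its label. Nr1i3 also had 29.5 counts in cLP CAR-deficient b, 13.6 in spleen CAR-deficient b and 13.8 in spleen CAR-deficient c. Wild type libraries held 0 to 36.1, so counts of this gene do not bear out the match of columns to genotypes. Of the markers of the sort, Cd4, the helper T cell co-receptor, had 112 to 230 CPM. Of the CD8 genes, Cd8a had at most 2.73 CPM and Cd8b1 at most 11.3 CPM, with at least 3 counts of Cd8b1 in 15 libraries. Rag1, which cuts receptor genes during their assembly, was at 0 in all 18. The wild type libraries a and b carried the beta segment Trbv26 in 52.0% to 72.0% of their beta V counts, while the other 12 libraries held at most 0.727%.

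The 3′ ends of 10 V exons are shown because these segments were each highest in the 3 libraries of a single trio. Each line gives the last 60 bases of the last coding exon, from the GENCODE vM21 transcripts (GRCm38, chromosome 14, plus strand), 5′ to 3′. Capitals run from the last in-frame cysteine codon, where CDR3 begins, to the end of the exon.
Trav7d-2 (chr14:52684413-52684472): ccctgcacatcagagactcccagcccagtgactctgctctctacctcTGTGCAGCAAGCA
Trav14-1 (chr14:53554499-53554558): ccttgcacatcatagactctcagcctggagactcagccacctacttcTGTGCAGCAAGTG
Trav4-4-dv10 (chr14:53684118-53684177): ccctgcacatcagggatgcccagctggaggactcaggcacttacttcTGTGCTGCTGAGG
Trav3-1 (chr14:52581154-52581213): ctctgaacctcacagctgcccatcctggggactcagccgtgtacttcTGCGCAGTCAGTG
Trav3-3 (chr14:53666447-53666506): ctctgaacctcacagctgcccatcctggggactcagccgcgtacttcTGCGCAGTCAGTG
Trav18 (chr14:53831768-53831827): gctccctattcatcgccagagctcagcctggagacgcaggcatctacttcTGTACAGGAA
Trav3-4 (chr14:53777517-53777576): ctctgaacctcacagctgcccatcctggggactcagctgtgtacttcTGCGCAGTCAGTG
Trav10 (chr14:53506227-53506286): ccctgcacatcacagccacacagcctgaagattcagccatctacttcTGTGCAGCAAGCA
Trav1 (chr14:52428817-52428876): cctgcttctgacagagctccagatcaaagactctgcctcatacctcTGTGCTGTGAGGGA
Trav7d-5 (chr14:52836328-52836387): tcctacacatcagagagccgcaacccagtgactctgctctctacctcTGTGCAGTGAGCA

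The CDR3 starts of Trav7d-2 and Trav10 have the same letters, and so do those of Trav3-1, Trav3-3 and Trav3-4. Over the whole exon the Trav3 segments differ more. Trav3-3 shares 90.4% of its positions with Trav3-1 and with Trav3-4, while Trav3-1 and Trav3-4 share 97.9%. The exon of Trav7d-2, the largest segment in all 3 organs of CAR-deficient trio a, is given whole, since a near-identical copy bears on how its counts are read.
Trav7d-2 (chr14:52684185-52684472): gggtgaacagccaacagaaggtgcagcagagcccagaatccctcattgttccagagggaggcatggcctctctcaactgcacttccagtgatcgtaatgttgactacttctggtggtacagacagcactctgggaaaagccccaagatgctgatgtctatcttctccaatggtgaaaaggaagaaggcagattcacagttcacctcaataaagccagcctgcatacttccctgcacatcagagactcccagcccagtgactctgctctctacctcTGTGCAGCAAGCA
Its core copy Trav7-2 differs from it only in an exon annotated 1 base shorter, with 287 bases against 288. Trav7d-4 and Trav7-4, which also hold large shares, differ from each other at 1 position, and Trav7d-2 differs from Trav7d-4 at 32.

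Such likeness is common in the locus. Of 108 segments with a usable coding exon, 34 had an exon identical to that of another segment and 91 had a relative with at least 95% identity. Within families the median identity of exon pairs was 88.6%, against 57.2% between families, where no pair exceeded 78.4%. In 15 pairs of segments the estimated counts were equal in every library, within 0.5 counts, and all 15 pairs had identical exons. Trav7d-5 and Trav7n-5, and Trav14d-1 and Trav14n-1, are such pairs. Counts of single segments with close copies are therefore uncertain, and shares by family are not touched by how reads were split within a family.

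Trav7 was the leading family. It averaged 26.8% of Trav counts over the 18 libraries, with a range of 6.02% to 46.8%, and was the largest family in 13 of them. These are shares of counts, not corrected for length, and the last coding exons of the segments run from 264 to 312 bases. Trav14 followed with 14.0% of counts, then Trav3 with 10.2%, Trav6 with 7.58%, Trav9 with 6.03%, Trav12 with 5.90% and Trav4 with 5.37%. These 7 families, each with a mean of at least 5%, together held 54.8% to 83.1% of the Trav counts of a library. At the other end Trav22, a pseudogene, had no counts, and Trav23 had at least 3 counts in 2 libraries.

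**Figure D1:**
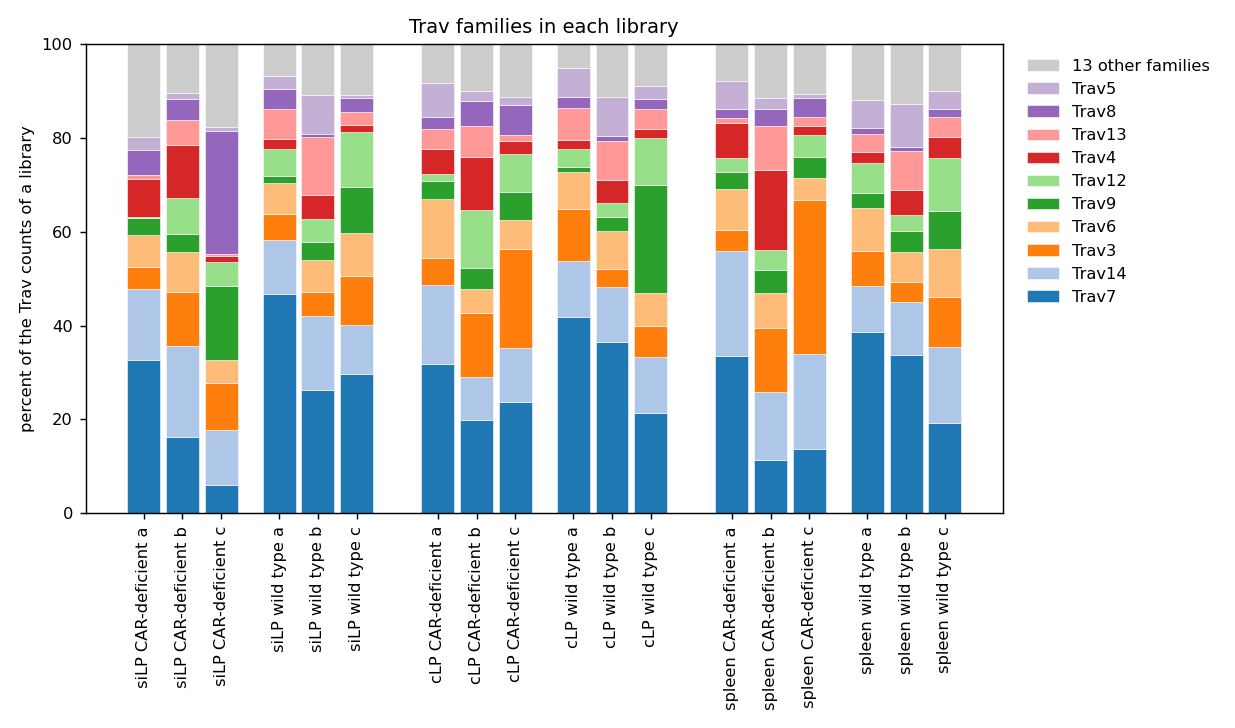
Percent of the Trav counts of each library held by 10 families and by the 13 others together; 1 bar is 1 library, with CAR-deficient libraries left of wild type ones within each organ. Trav7 is the largest block in 13 of 18 bars; its share runs from 6.02% in siLP CAR-deficient c, where Trav8 leads, to 46.8% in siLP wild type a.

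The 5 libraries led by another family were different from each other in which family that was. In siLP CAR-deficient b it was Trav14 with 19.3%, and in siLP CAR-deficient c it was Trav8 with 26.1%. In spleen CAR-deficient b Trav4 led with 17.1%, and in spleen CAR-deficient c Trav3 led with 32.7%. In cLP wild type c Trav9 led with 23.0%. Thus 4 of the 5 came from CAR-deficient cells. Trav8 in siLP CAR-deficient c rested on Trav8-1, which alone held 16.6% of the Trav counts there and at most 4.01% in the other 17 libraries.

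Large shares of a family could rest on a single segment or on many. In the CAR-deficient libraries a most of Trav7 was Trav7d-2, with 70.3% of the Trav7 counts in siLP, 67.7% in cLP and 66.0% in spleen. In CAR-deficient libraries c it was Trav7-4, with 53.2% in siLP, 73.2% in cLP and 60.3% in spleen. Over the 9 CAR-deficient libraries the largest Trav7 segment held 29.9% to 73.2% of the family, with a median of 66.0%. In the 9 wild type libraries it held 19.4% to 33.5%, with a median of 25.5%. By single segment the groups overlap through 1 CAR-deficient library, spleen b. The split of reads among near-identical copies is uncertain, and both these shares and their overlap depend on it. Trav7-4 and Trav7d-4, which differ at 1 position, had 2107 and 2084 of 8690 Trav7 counts in spleen wild type a. In spleen CAR-deficient c they had 734 and 0 of 1218. Shares with such copies summed were not tested. The contrast between genotypes was looked at after the values had been seen, so it is given with no test.

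The overlap of 2 libraries is the sum, over segments or families, of the smaller of their 2 percents, so 100% means equal usage. For each of the 18 libraries the library with the highest segment overlap was of the same genotype and from another organ, and in 17 it also had the same column ending. The exception was spleen wild type a, which was closest to cLP wild type b with 71.2%. In no case was the closest library from the same organ.

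Within a genotype, libraries from different organs with the same ending overlapped by 65.5% of segment usage on average, with a range of 44.7% to 81.5% over 18 pairs. Those with other endings overlapped by 44.1%, with a range of 21.8% to 71.2% over 36 pairs. The difference of 21.4 points gave p = 0.000772 by exact permutation of the endings within groups, the smallest p these 46656 assignments can give for pairs within a genotype, and an adjusted p of 0.00129 over the 5 sharing tests at the level of segments. By family the means were 80.8% for the same ending and 67.4% for others (exact permutation, p = 0.000772, adjusted p = 0.00193). Without the 6 libraries a the difference was 21.8 points by segment and 11.96 by family, with an exact permutation p of 0.0625 for both, the smallest that 2 endings and 64 assignments can give for pairs within a genotype, so that test could not pass.

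**Figure D2:**
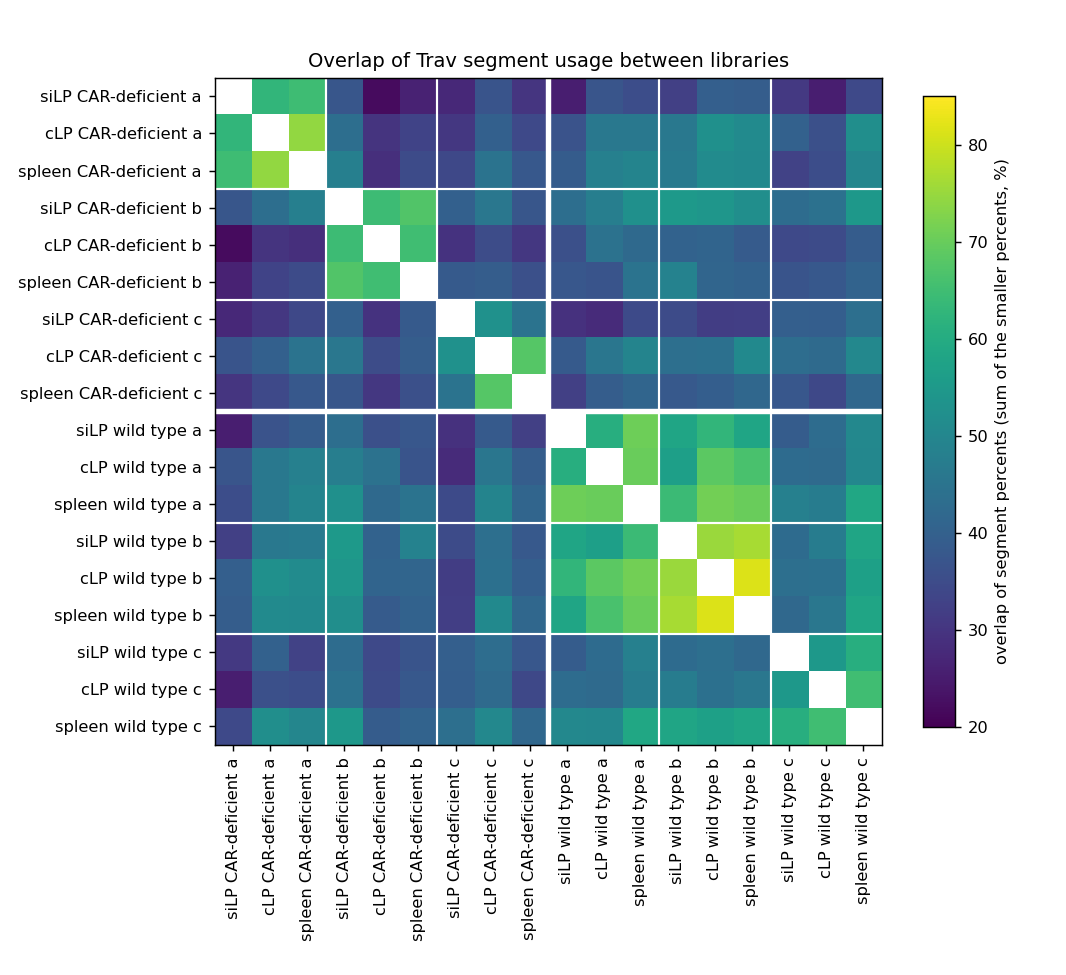
Overlap of segment usage between each pair of libraries, in percent by colour, with the 3 organs of 1 genotype and ending next to each other; white lines bound these trios and the thick line separates CAR-deficient from wild type libraries. Over pairs of different organs, each block on the diagonal has a higher mean than the others in its row, at 55.1% to 77.7%. The highest mean off the diagonal, 63.2%, joins wild type a and b. It lies above those of CAR-deficient c, 55.1%, and wild type c, 60.2%, on the diagonal.

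By segment, every trio overlapped more within itself than with any other trio. By family the CAR-deficient trio c was an exception, with 63.1% within itself, 64.0% with CAR-deficient b and 63.9% with wild type c. The mean segment overlap was 67.3% within the CAR-deficient trio a, 65.6% within b and 55.1% within c. Within wild type it was 67.2% in trio a, 77.7% in b and 60.2% in c. Between different trios of the same or the other genotype, and over different organs, the means ran from 33.6% to 49.0% in 14 of 15 combinations. The remaining one, wild type a with wild type b, reached 63.2%. These are also the trios with Trbv26 in most of their beta V counts. The CAR-deficient trios shared little with each other, at 33.6% for a with b, 35.1% for a with c and 36.8% for b with c.

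Between the genotypes, the result for a shared ending depended on the measure. Libraries of different genotype overlapped by 42.5% of segment usage with the same ending and by 40.6% with other endings (exact permutation, p = 0.0476, adjusted p = 0.0595). By family the means were 67.6% and 64.6%, a difference of 2.95 points (exact permutation, p = 0.0613). With the Morisita-Horn index, which weights large families more, the difference by family was 6.14 points (exact permutation, unadjusted p = 0.00412). Over different organs, libraries of the same genotype overlapped more than those of different genotype, at 51.3% against 41.1% by segment (exact permutation of genotype within organ, p = 0.0005, adjusted p = 0.00125) and at 71.9% against 65.5% by family (p = 0.00475, adjusted p = 0.00792, exact permutation). The same-genotype pairs include those of a trio, and the test treats the libraries of a trio as independent. Pairs of the same genotype with different endings overlapped by 44.1% of segment usage and 67.4% of family usage. Between trios, the segment means were 33.6%, 35.1% and 36.8% among CAR-deficient trios, no higher than most of the 9 combinations of a CAR-deficient with a wild type trio, which ran from 36.7% to 45.9%. Wild type trios overlapped by 63.2% for a with b, 46.9% for a with c and 49.0% for b with c.

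No difference by organ was detectable. Libraries of different genotype overlapped by 41.5% of segment usage within an organ and by 41.1% between organs (exact permutation of organ within genotype, p = 0.602). By family the means were 65.8% within and 65.5% between organs (exact permutation, p = 0.768).

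Single segments marked single trios. A segment was counted as marking a trio if it held at least 1% of Trav counts in all 3 organs and lay above all 15 other libraries in each of them, a rule set after the values had been seen and given with no test. There were 18 such segments, with at least 1 in every trio. Trav7d-2 (ENSMUSG00000105533) marked CAR-deficient a with 23.0% in siLP, 21.6% in cLP and 22.1% in spleen, against at most 7.10% elsewhere. Its share hardly differed between the 3 organs. Trav14-1 and Trav21-dv12 marked the same trio. Trav14-1 held 5.97%, 8.44% and 9.36% in siLP, cLP and spleen, against at most 2.49% elsewhere. Trav21-dv12, a segment shared with the delta chain, held 11.2% in siLP, 2.31% in cLP and 2.33% in spleen, with at most 2.07% elsewhere.

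CAR-deficient b was marked by another set. Trav4-4-dv10 held 6.21% in siLP, 7.98% in cLP and 10.9% in spleen, against at most 1.71% elsewhere. Trav3-1 held 3.75%, 8.79% and 4.75% in the same order of organs, against at most 0.264% elsewhere, and Trav4-3 held 2.05%, 1.38% and 3.51%. CAR-deficient c was marked by Trav3-3, Trav18 and Trav19. Trav3-3 (ENSMUSG00000094828) held 8.71% in siLP, 18.1% in cLP and 31.6% in spleen, against at most 7.59% elsewhere, so that its share in spleen was the highest of any segment in any library. Trav18 (ENSMUSG00000076861), a family with 1 segment, held 1.03%, 2.77% and 4.36%. It had at least 3 counts in 1 of the other 15 libraries, where it held 0.0563%. In both segments siLP was lowest and spleen highest, with 1 library per organ.

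**Figure D3:**
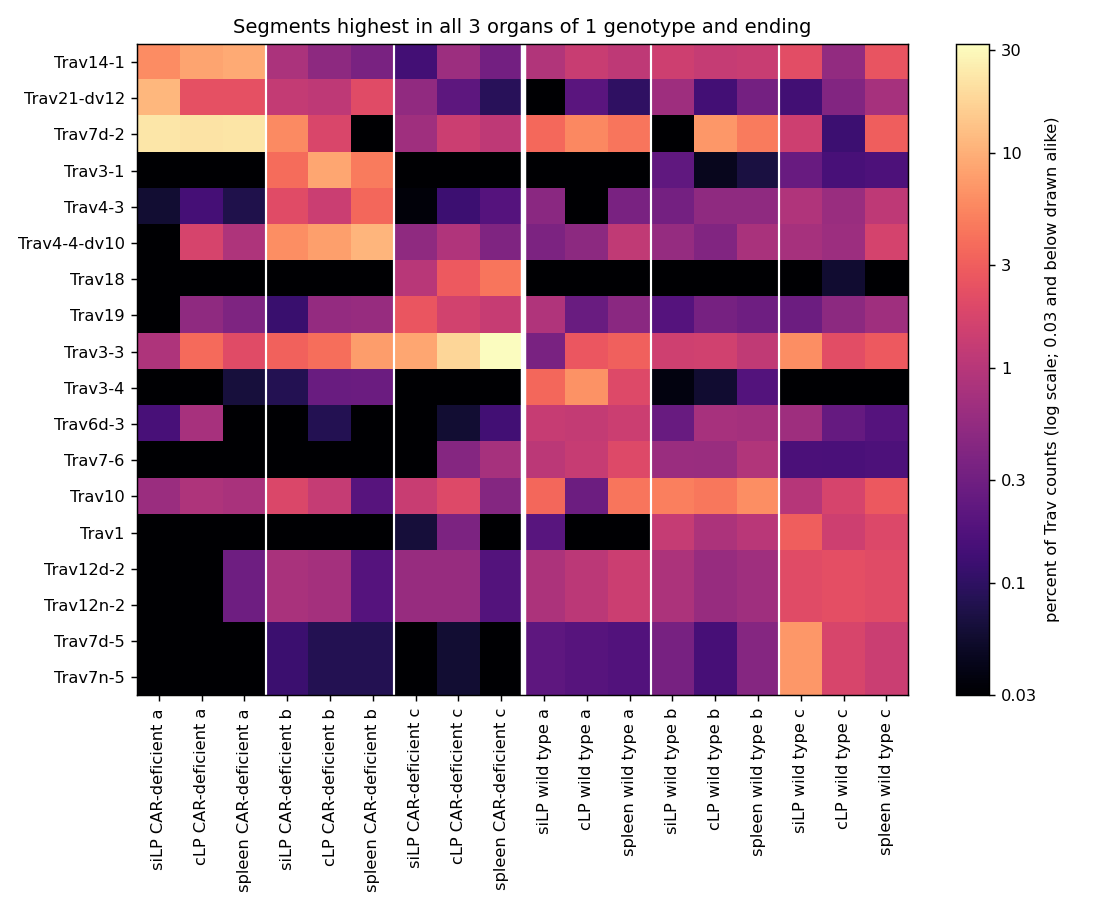
Percent of Trav counts, by colour on a log scale, of the 18 segments that held at least 1% in all 3 organs of a trio and lay above the other 15 libraries; columns are libraries, CAR-deficient left of wild type. Each row is highest in 1 block of 3 columns. Values there run from 1.03% for Trav18 in siLP CAR-deficient c to 31.6% for Trav3-3 in spleen CAR-deficient c. Other libraries come close in some rows, with up to 7.59% for Trav3-3 and 4.37% for Trav10. Trav7d-5 and Trav7n-5, and Trav12d-2 and Trav12n-2, are identical copies with equal values.

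Each wild type trio had its own segments as well. In wild type a Trav3-4 held 3.50% in siLP, 6.58% in cLP and 1.96% in spleen, against at most 0.280% elsewhere, and Trav7-6 and Trav6d-3 held 1.07% to 1.97%. Trav3-1, Trav3-3 and Trav3-4 thus each marked a different trio while ending in the same CDR3 start. In wild type b Trav10 (ENSMUSG00000096551) held 4.89%, 4.45% and 6.20%, close to its 4.37% in spleen wild type a, the next highest library. In wild type c Trav1 held 3.05% in siLP, 1.47% in cLP and 1.92% in spleen, against at most 1.26% elsewhere. Trav7d-5 and Trav7n-5, which cannot be told apart, held 6.995% each in siLP, 1.75% in cLP and 1.38% in spleen, against at most 0.436% elsewhere.

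Between CAR-deficient and wild type cells, 5 of 22 families with counts differed in their share of Trav counts by exact permutation of genotype within organ, with p-values adjusted over the 22. Trav8, Trav17 and Trav21 had larger shares in CAR-deficient cells, and Trav10 and Trav1 had smaller ones. All 5 kept their direction in each of the 3 organs. These tests count the 9 libraries of a genotype as independent, which the sharing within trios does not bear out. With 1 mean per trio, 3 against 3, no p can fall below 0.1. Of the 22 families 4 reached that value, Trav8, Trav10, Trav14 and Trav17, each with an adjusted p of 0.471 by exact permutation.

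Trav8 held 5.41%, 4.47% and 26.1% in CAR-deficient siLP libraries a, b and c, against 4.26%, 0.614% and 3.04% in wild type ones. In cLP it held 2.64%, 5.38% and 6.40% against 2.49%, 0.900% and 2.23%, and in spleen 1.99%, 3.58% and 4.07% against 1.25%, 0.905% and 1.73%, CAR-deficient before wild type. In every organ all 3 CAR-deficient libraries lay above all 3 wild type ones. Without siLP CAR-deficient c, its highest library, the difference was 2.38 points, against 4.73 points with it, and still passed (exact permutation, adjusted p = 0.0348). The mean was 6.67% ± 7.40 in CAR-deficient cells and 1.94% ± 1.19 in wild type cells (SD, n = 9 each; exact permutation, adjusted p = 0.0055).

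Trav10 held 0.630%, 2.76% and 1.43% in CAR-deficient siLP, against 4.67%, 5.64% and 1.78% in wild type siLP. It held 0.857%, 1.53% and 2.27% in CAR-deficient cLP, against 1.59%, 5.78% and 1.92% in wild type cLP. In CAR-deficient spleen it held 1.21%, 0.335% and 0.717%, against 6.23%, 7.85% and 2.82% in wild type spleen. The groups overlapped in both gut organs and not in spleen. Its mean was 1.30% ± 0.797 in CAR-deficient and 4.25% ± 2.29 in wild type cells (SD, n = 9 each; exact permutation, adjusted p = 0.0413).

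Trav1 averaged 0.0541% ± 0.120 in CAR-deficient and 1.09% ± 0.996 in wild type cells (SD, n = 9 each; exact permutation, adjusted p = 0.0495). Its wild type share lay in libraries b and c, with 0.846% to 3.05%, while wild type a held 0.198% in siLP and 0 in cLP and spleen. Trav17 averaged 1.36% ± 1.03 in CAR-deficient and 0.415% ± 0.357 in wild type cells (SD, n = 9 each; exact permutation, adjusted p = 0.0495), with its 3.50% in siLP CAR-deficient a the highest value. Trav21, whose single segment is Trav21-dv12, averaged 2.34% ± 3.42 in CAR-deficient and 0.305% ± 0.263 in wild type cells (SD, n = 9 each; exact permutation, adjusted p = 0.0495). Its highest value, 11.2%, was in siLP CAR-deficient a, the library with the most Nr1i3 counts, against its label. Without that library the difference in Trav21 was 0.892 points, against 2.04 points with it, that in Trav17 was 0.613 against 0.942 points, and 1 family, Trav8, passed (exact permutation, adjusted p = 0.0706 for Trav21 and for Trav17).

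**Figure D4:**
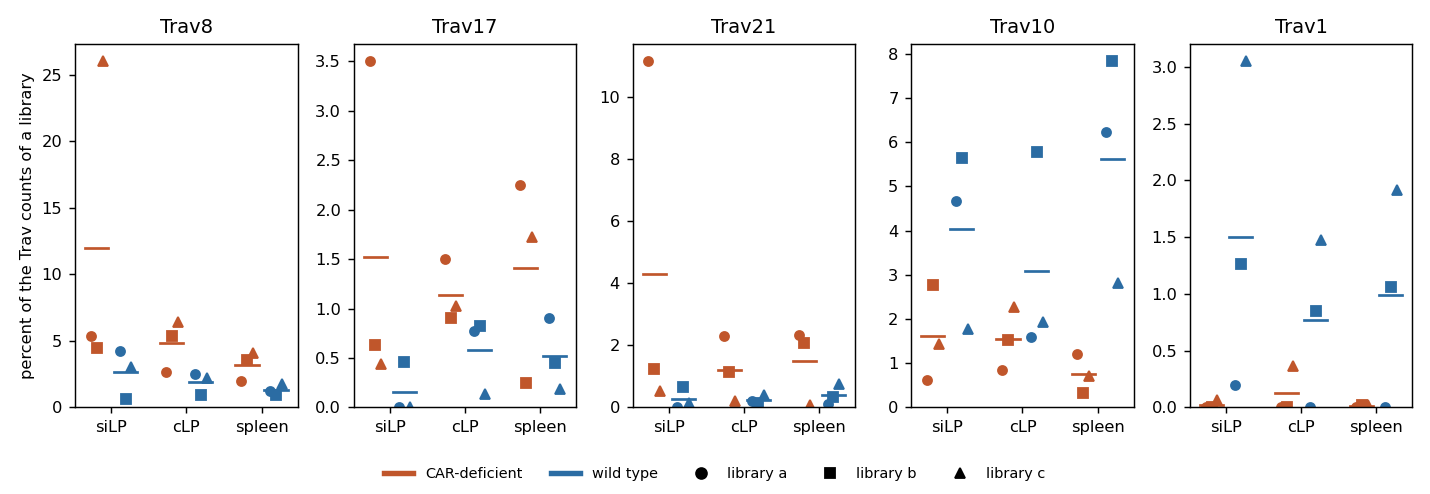
Percent of Trav counts held by the 5 families whose shares differed between genotypes, by organ; each symbol is 1 library, its shape gives the column ending, bars are means of 3, and CAR-deficient stands left of wild type. Trav8 is the only one of the 5 in which the genotypes do not overlap in any organ.

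With libraries left out, the 5 families kept their direction. Where whole sets of libraries were left out, the tests had little room to pass. Without the 6 libraries a, the 216 assignments allow no p below 0.00926, and 5 of the 22 families would have to reach it for any to pass. Trav8 with a difference of 6.76 points and Trav1 with -1.52 reached it (exact permutation, adjusted p = 0.102 for both), while Trav10 differed by -2.79, Trav17 by 0.486 and Trav21 by 0.469 points. Without wild type a and b, the 64 assignments allow no p below 0.0156, and 7 of 21 families would have to reach it. There Trav1 differed by -2.09 points and reached it (exact permutation, adjusted p = 0.328), and Trav8 differed by 4.33, Trav10 by -0.867, Trav17 by 1.25 and Trav21 by 1.90 points. Leaving out 1 library at a time keeps far more assignments, and the count of 5 was still not reached. In these fits 4 families passed without siLP CAR-deficient c or cLP CAR-deficient c, and 0 to 3 without each of the other 16. The count was 0 in 3 fits and 1 in 5. The leading family Trav7 averaged 21.0% ± 10.1 in CAR-deficient and 32.7% ± 9.30 in wild type cells and did not pass (SD, n = 9 each; exact permutation, p = 0.0308, adjusted p = 0.113). Trav16 likewise had p = 0.0475 before and 0.132 after adjustment by exact permutation.

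Trav11, the invariant NKT family, was rare. It held 0 to 0.605% of Trav counts in CAR-deficient libraries and 0 to 0.284% in wild type ones, with means of 0.136% and 0.150% (exact permutation, adjusted p = 0.850). Its counts lay in Trav11d and Trav11n, and Trav11 itself had fewer than 3 counts in all 18 libraries. Trav11n had at least 3 counts in 2 libraries, with 6.11 beside 19.7 of Trav11d in siLP wild type b and 10.7 beside 21.1 in spleen wild type b. Zbtb16, a transcription factor that invariant NKT and MAIT cells depend on, reached at most 0.173 CPM and had at least 3 counts in 1 library, spleen wild type b. The MAIT family Trav1 was read in libraries in which that factor was at or near 0.

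Segments shared with the delta chain held 12.8% ± 4.42 of Trav counts in CAR-deficient and 7.12% ± 2.78 in wild type cells (SD, n = 9 each). This did not pass after adjustment over the 8 measures of level and copy type (exact permutation, p = 0.008, adjusted p = 0.064). Of 6 gamma delta T cell markers, the constant gene Trdc was at 0 to 11.2 CPM in 17 libraries and at 37.6 CPM in cLP wild type b. The summed markers had 89.5 to 668 CPM in CAR-deficient and 1.58 to 868 CPM in wild type libraries, of which the gamma constant gene Tcrg-C2 gave 0 to 580 CPM. The 6 wild type libraries a and b, with 1.58 to 70.7 CPM, lay below every CAR-deficient library, and wild type c had 162 CPM in siLP, 868 in cLP and 107 in spleen. The part of these markers in the shares of dv segments was not tested. Trav8, Trav10, Trav1 and Trav17 hold no dv segment, so leaving dv segments out changes only the total of which they are shares. Their shares then kept their direction, and Trav21, whose single segment is a dv one, dropped out.

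Whether usage was spread evenly depended on the unit counted. By family, the inverse Simpson number, the count of equally used families that would give the same concentration, was 7.23 ± 1.52 in CAR-deficient and 6.25 ± 1.57 in wild type cells (SD, n = 9 each; exact permutation, adjusted p = 0.339). The largest family held 26.3% ± 6.57 and 32.8% ± 9.08 of Trav counts in the same order (exact permutation, adjusted p = 0.339). Pielou evenness, which is 1 when all families are equal, was 0.721 ± 0.0372 in CAR-deficient and 0.699 ± 0.0505 in wild type cells (exact permutation, adjusted p = 0.349).

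By single segment, where close copies count as separate units and the split of reads among them is uncertain, the direction turned round. CAR-deficient cells had an inverse Simpson number of 18.3 ± 9.68 segments and wild type cells of 31.2 ± 6.77 (SD, n = 9 each; exact permutation, adjusted p = 0.008). The largest segment held 18.2% ± 7.45 of Trav counts in CAR-deficient and 8.90% ± 2.43 in wild type libraries (exact permutation, adjusted p = 0.00563). Pielou evenness was 0.708 ± 0.0630 and 0.796 ± 0.0249 (exact permutation, adjusted p = 0.00563). In siLP the inverse Simpson numbers were 11.5, 39.1 and 17.1 in CAR-deficient libraries a, b and c, against 25.6, 35.9 and 29.7 in wild type ones. In cLP they were 13.9, 21.4 and 13.5 in CAR-deficient against 23.2, 32.1 and 27.4 in wild type libraries, and in spleen 12.9, 27.2 and 7.74 against 30.3, 29.99 and 46.3. The groups did not overlap in cLP and spleen, and overlapped in siLP through library b. All 3 measures passed with any 1 library left out (largest adjusted p = 0.0208, exact permutation). None passed without the 6 libraries a, where the inverse Simpson number differed by -12.6 (exact permutation, adjusted p = 0.0648 for each measure), or without wild type a and b, where it differed by -16.2 (exact permutation, adjusted p = 0.0625). With 1 mean per trio the exact permutation p was 0.1 for the largest segment, the smallest 3 against 3 can give, and 0.2 for the other measures.

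**Figure D5:**
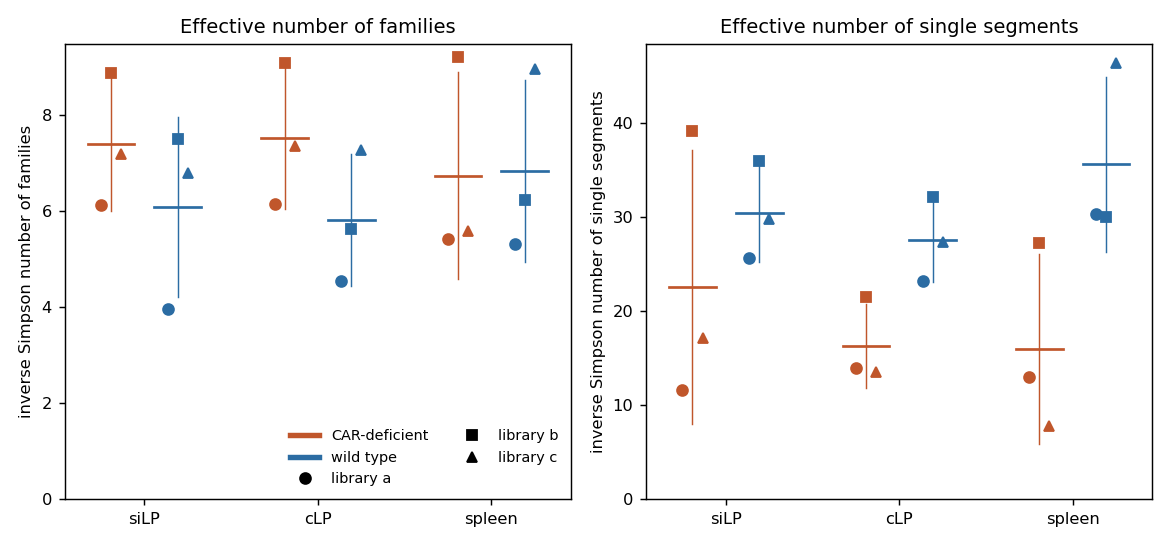
Inverse Simpson number of families (left) and of single segments (right) by organ, each symbol 1 library, with the mean as a horizontal bar and 1 SD as a vertical line (n = 3); CAR-deficient stands left of wild type. The family numbers overlap in every organ, between 3.97 and 9.23, while the segment numbers of CAR-deficient libraries a and c, 7.74 to 17.1, lie below all 9 wild type ones.

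No difference between organs in family usage was detectable. No family passed after adjustment in any pair of organs. Permuting organ within genotype allows 400 assignments, so few that several families would have to reach the smallest possible p for any to pass. Before adjustment 1 of 22 families had an exact permutation p under 0.05 in siLP against spleen, 2 in cLP against spleen and 0 in siLP against cLP. Trav8 held 7.31% ± 9.33 in siLP and 2.25% ± 1.28 in spleen (SD, n = 6 each; exact permutation, p = 0.035, adjusted p = 0.66). Trav11 held 0.0853% ± 0.0835 in cLP and 0.261% ± 0.196 in spleen (SD, n = 6 each; exact permutation, p = 0.04, adjusted p = 0.44). Trav20, a pseudogene, held 0.00513% ± 0.0126 in cLP and 0.142% ± 0.142 in spleen (SD, n = 6 each; exact permutation, p = 0.02, adjusted p = 0.44). The 3 evenness measures had adjusted p-values of 0.682 or more in all pairs of organs, by family and by segment, in exact permutation tests.

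Tested gene by gene with edgeR's quasi-likelihood test and Benjamini-Hochberg adjustment over all genes, the segments gave no calls. A filter on low counts kept 108 of the 128 segments. Between CAR-deficient and wild type cells averaged over organs, 0 of 108 segments and 0 of 21 families passed, where 0.0134% of all genes were called in the segment table and 0.0135% in the family table. Unadjusted p-values under 0.05 were found for 40 of 108 segments, against 5.77% of all genes, and for 8 of 21 families, against 5.65%. The fit counts the libraries of a genotype as independent, which the sharing within trios does not bear out. Identical copies also count as separate segments here. Of the 108 segments, 48 had a positive log2 fold change, and the median was -0.39, against -0.01 over all genes. Within siLP, cLP and spleen taken singly, 0 segments and 0 families passed, where 0% of all genes were called, and 22, 10 and 14 segments had an unadjusted p under 0.05, against 4.31%, 2.44% and 1.95% of all genes.

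The 5 families named above had these log2 fold changes, CAR-deficient over wild type, averaged over organs in the same edgeR fit. Trav8 had 1.37 ± 0.41 (SE, adjusted p = 0.484) and Trav21 had 3.25 ± 0.94 (adjusted p = 0.474). Trav17 had 1.98 ± 0.93 (adjusted p = 0.882). Trav10 had -1.82 ± 0.49 (adjusted p = 0.377) and Trav1 had -5.01 ± 1.32 (adjusted p = 0.362), where 6 of 9 CAR-deficient libraries were at fewer than 3 counts and the size depends on the prior count. DESeq2's Wald test, with its own adjusted p, called 3 of 21 families in this comparison, Trav1, Trav10 and Trav21, where it called 0.785% of the genes to which it gave an adjusted p. It called 12 of 108 segments, 1 higher and 11 lower in CAR-deficient cells, where it called 0.882% of genes. The sharing within trios bears on these calls as well. Within siLP, cLP and spleen taken singly it called 1, 2 and 1 segments, where it called 0.241%, 0.0811% and 0.115% of genes, and 0 families, where it called 0.24%, 0.068% and 0.109%.

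Between organs edgeR's quasi-likelihood test called 0 of 108 segments and 0 of 21 families in siLP against spleen, where 0.847% of all genes were called in the segment table and 0.906% in the family table. In cLP against spleen it called 0 and 0 where 3.07% and 3.14% of genes were called, and in siLP against cLP 0 and 0 where 0% were. Unadjusted p-values under 0.05 were found for 4, 1 and 5 of 108 segments in these comparisons, against 9.65%, 14.99% and 8.34% of all genes. DESeq2 called 1, 2 and 0 segments, where it called 2.76%, 7.13% and 1.5% of genes, and 0 families in each, where it called 2.83%, 7.17% and 1.54%. The genotype effect did not differ between siLP and spleen, or between cLP and spleen, at an adjusted p under 0.05 for any segment or family in edgeR, where 4 and 3 segments had an unadjusted p under 0.05, against 2.27% and 1.24% of all genes.

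The summed Trav message did not differ detectably between genotypes. It held 0.0622% ± 0.0159 of all counts in CAR-deficient and 0.0625% ± 0.0159 in wild type cells (SD, n = 9 each; exact permutation, p = 0.970). Per count of the constant gene Trac, Trav counts were 0.204 to 0.276. In bulk libraries, fewer cells with a segment and less of its message per cell cannot be told apart. The column ending went with the level in all 6 groups. Libraries c had 0.0426% to 0.0516%, below libraries a with 0.0604% to 0.0913% and libraries b with 0.0582% to 0.0785%, and Trac had 1814 to 2222 CPM in c, against 2250 to 3862 CPM in a and b.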

How the data were processed

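Messenger RNA of 18 libraries was amplified with a SMART-Seq v4 kit and made into Illumina-compatible libraries, per the labels' protocols. The authors deposited estimated counts per gene, unscaled and not pooled, per the file headers. Salmon, DESeq2 and the build mm10 are listed in the submitters' processing notes, with no role. Their annotation is not given in the sources used here. Another 37 value columns of the table were not used here.

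Count columns were matched to groups by organ and CD45.1 status in their names; the CD45.1-negative columns were taken as CAR-deficient, the only other genotype in the labels. Of 34162 Ensembl identifiers 34083 matched GENCODE vM21. Counts were rounded to whole numbers for edgeR 4.0.16 (R 4.3.3, limma 3.58.1), which used filterByExpr, TMM scaling and the quasi-likelihood test on 18 libraries in 6 groups, with Benjamini-Hochberg adjustment over 14876 genes, or 14789 rows with families summed, and a threshold of 0.05. Shares, evenness and overlap were computed on unrounded counts and tested two-sided by exact permutation, with 8000 assignments for genotype (permuted inside each organ), 400 for each pair of organs (inside each genotype) and 46656 for endings (inside each group). DESeq2 1.42.0 was an alternative. The fits were tested on simulated data. V exons came from the GENCODE vM21 transcripts (GRCm38).

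Families were named where they led a library, averaged at least 5%, passed a test, or are Trav11 or Trav1; single segments where they led a family or a library. Segments that mark a trio were chosen after their values were seen. The members, lists and tests were chosen with earlier results of these data known.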

Additional observations from a re-analysis of the deposited data

How the results depend on the processing

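The overlap by column ending within a genotype, and by genotype, kept its direction in every alternative run, and edgeR called no Trav segment or family in any of them. DESeq2's Wald test called, between genotypes, 12 segments over all organs (0.882% of genes called), 1 in siLP alone (0.241%), 2 in cLP alone (0.0811%) and 1 in spleen alone (0.115%), and further 1 in siLP against spleen (2.76%), 2 in cLP against spleen (7.13%), and 3 families over all organs (0.785%). Of the 5 families that differed in share between genotypes, 0 passed without the 6 libraries a, 0 without wild type a and b and 0 with 1 mean per trio, designs with few assignments, and 2 on the scale of log2 of percent plus 0.5 and 2 with plus 0.1. Leaving out 1 library gave 0 to 4 families. With the column ending as a replicate block 0 families passed (smallest adjusted p = 0.0573, exact permutation), and the block changed no edgeR call. Libraries were also correlated by log2 of CPM plus 1, as deviations from the group mean, over all genes with a mean of at least 5 CPM. Within a genotype, same-ending libraries of different organs exceeded 0.1 in 17 of 18 pairs, against 4 of 36 with other endings. Same-ending libraries of different genotype did so in 24 of 27, against 9 of 54. The endings were not taken as a pairing, for which every pair had to exceed 0.1. The Trav9 share turned round on the scales of log2 of percent plus 0.5 (0.15) and plus 0.1 (0.20) and without cLP wild type c (1.51 points), its other such values reaching -2.16 without cLP wild type a. The Trav11 share turned round without pseudogenes (0.00217 points), without libraries a (0.0453), without wild type a and b (0.0106), and without siLP CAR-deficient a or b (0.00292 each), siLP wild type b (0.00541) or spleen CAR-deficient a (0.0343), the lowest such value being -0.0665 without spleen CAR-deficient c.

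Evenness by family between genotypes reversed without wild type a and b, to -0.0174 for Pielou evenness, -0.452 for the inverse Simpson number and 2.36 points for the largest family, and by single segment, to -0.0883, -12.9 and 9.34 points. The other reversals concern differences that passed no test. In siLP against spleen the inverse Simpson difference was 0.0614 without pseudogenes, 0.0945 without libraries a and 0.738 by segment, and that in the largest share was -0.373 points without libraries a and -3.26 by segment. In cLP against spleen the largest share differed by -1.04 points by segment. In siLP against cLP it differed by -0.310 points without dv segments, -0.509 without libraries a and -2.22 by segment. Without libraries a the total Trav level differed by 0.00149 points of all counts between genotypes and by 0.000600 in cLP against spleen. Overlap by ending between genotypes had an unadjusted exact permutation p under 0.05 with the Morisita-Horn index (6.14) and by segment (1.89 points, adjusted p = 0.0595), and that within a genotype could not pass without libraries a (11.96 points), where 0.0625 is the smallest possible p.

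Leaving out 1 library at a time, Pielou evenness differed by -0.0234 to 0.00804 in siLP against spleen, by -0.0150 to 0.0106 in cLP against spleen and by -0.0197 to 0.0119 in siLP against cLP. The inverse Simpson number differed by -0.422 to 0.577, -0.503 to 0.508 and -0.302 to 0.5996 in the same pairs, and the largest share by -2.15 to 3.00, -2.45 to 3.08 and -2.53 to 2.62 points. The total level differed by -0.00438 to 0.00371 between genotypes and by -0.00207 to 0.0101 in siLP against spleen. Overlap by ending between genotypes differed by 1.25 to 4.35 points, and by organ by -0.814 to 1.23. The cause of these changes was not tested. The alternative with length-corrected abundances was not run. A library's Trav counts limit a family's percent to within 0.979 points by counting error alone.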
